A study of Mus musculus with 46 samples.

Results

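Stromal cells sorted by PDGFRB from obstructed kidneys (UUO) were compared with those from sham-operated kidneys, across all genes. The comparison rests on 8 of the 46 samples of the series, 4 UUO and 4 sham, which were chosen by their labels as the PDGFRB+ samples of these groups. All were labelled wild type, and the study's methods describe young adult male C57BL/6 mice. In unilateral ureteral obstruction (UUO) the ureter of 1 kidney is blocked, and sham mice have the surgery without the block. The labels of these 4 UUO samples do not state how long the ureter was blocked, and the series text names UUO of 2 days and of 7 days. The other samples are stromal cells after reversal of UUO (rUUO), and proximal tubular (PT) cells, macrophages and endothelial cells. Before sequencing, cDNA was made and amplified from the sorted cells' RNA (Ovation RNA-Seq System V2).

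PDGFRB, a receptor for platelet-derived growth factor, marks the mesenchymal cells of the kidney: pericytes around capillaries, fibroblasts of the interstitium, mesangial cells of the glomerulus, renin-producing cells and vascular smooth muscle. When urine flow is blocked, cells of this compartment divide, take on contractile features and lay down collagen, which is the basis of kidney fibrosis. A PDGFRB sort therefore holds several cell types, and in such bulk samples fewer cells of a type and less RNA per cell cannot be told apart.

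Gene expression was given as FPKM, a fragment count scaled by transcript length and by the mapped fragments of the sample. The FPKM sum ranged from 620865 to 691175 in sham and from 586929 to 627012 in UUO samples, and 13389 to 14464 genes against 12322 to 12839 genes reached 1 FPKM. The files hold no counts, so absolute depth is unknown. Relative depth was estimated from the most frequent ratio between samples of values under 1 FPKM in 9226 short single-exon genes. The estimate assumes that most such values stand for equal low counts, which could not be checked. It was 0.89 to 1.08 in sham and 0.85 to 1.24 in UUO samples. Pearson's r across genes was 0.893 to 0.935 between sham samples, 0.874 to 0.894 between UUO samples and 0.750 to 0.793 between the groups. The series text gives 4 mice for each group, but the labels do not name the mouse behind a sample, so p-values measure the spread between these samples.

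The label was checked against the defining genes of the sort. Pdgfrb had 202, 233, 258 and 157 FPKM in the sham samples and 92.9, 93, 174 and 108 FPKM in the UUO samples. In the other sorted populations its mean was 0.663 to 4.47 FPKM. It was lower in UUO (−0.88 ± 0.24 on the log2 scale, adjusted p = 0.0167), with an overlap between the groups. That call was lost without sham replicate 2, where the change was −0.83, and when genes of low level were kept in the test. Col1a2, a chain of type I collagen, and Dcn, the proteoglycan decorin, are expressed by fibroblasts. Col1a2 rose from 216 ± 143 to 2870.4 ± 445 FPKM and Dcn rose from 565 ± 306 to 2386 ± 1065 FPKM (mean ± SD, n = 4 in each group, as in all stromal values below unless single samples are given). Means of the other sorted populations rest on 4 samples, or on 3 for PT sham and endothelial UUO cells.

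Of 13919 genes that averaged 1 FPKM or more, 3411 changed at an adjusted p under 0.05 by limma, which is 24.5% of the genes tested. Of these, 1718 rose (12.3% of genes tested) and 1693 fell (12.2%). For 2986 of the called genes (21.5%) the UUO and sham samples did not overlap, 1520 of them higher (10.9%) and 1466 lower (10.5%) in UUO. Changes are differences in log2(FPKM + 1), which understates the change of low genes. Changes above 2 on this scale were reached by 417 risen and 435 fallen genes, and changes above 4 by 20 and 40 genes. The median change over all genes tested was −0.07. Sham replicate 3 stood apart from the other sham samples, as the highest of them in the sums of the collagen, matrix, fibroblast and complement lists described below. Without it 2961 genes changed, 1542 higher and 1419 lower.

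Genes of the mitochondrial genome took part of this scale. Their share of the FPKM sum was 35.3, 34.0, 34.9 and 45.8% in the sham samples and 21.5, 26.4, 25.6 and 22.1% in the UUO samples. Every UUO sample was below every sham sample, by 13.6 percentage points on average (p = 0.0286 in a two-sided exact permutation test, which is the lowest value possible with 4 samples in each group). When each sample was rescaled to the same sum without the 37 mitochondrial genes, the median of all genes moved to −0.23. There 1393 genes rose (9.98%) and 2201 fell (15.8%), so that rises made up 38.8% of the calls in place of 50.4%. Among the 3073 genes called on both scales, all kept their direction. Lists are therefore described below with their median on the deposited scale and, where it matters, without mitochondrial genes. Their counts stand beside the 12.3% of all genes that rose and the 12.2% that fell on the deposited scale. The lists were chosen with earlier results of these data known, so the counts are a description and no test against these shares.

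**Figure D1:**
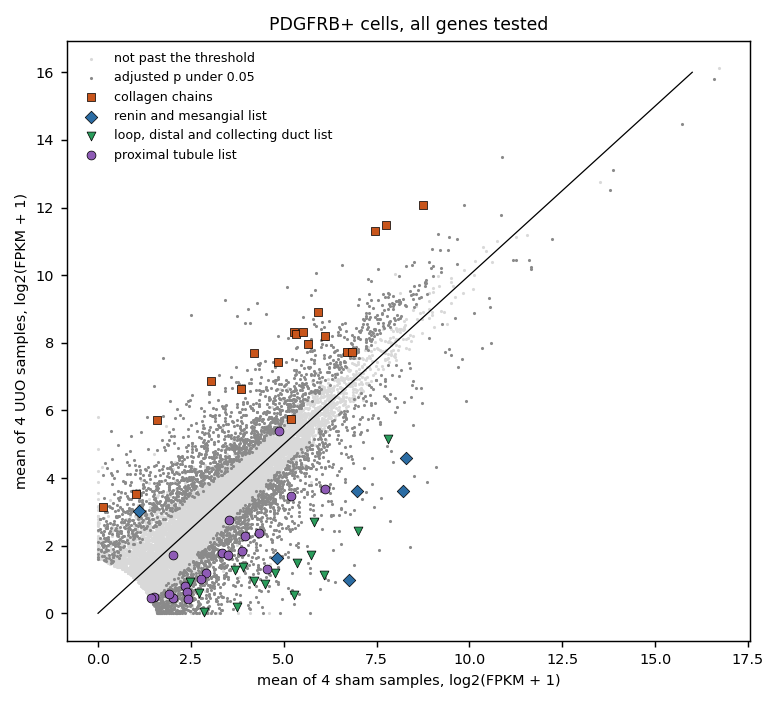
Mean expression of every gene tested, log2(FPKM + 1), in the 4 sham samples (x axis) and the 4 UUO samples (y axis) of PDGFRB+ cells, with the diagonal marking equal levels. Dark grey points are the 3411 genes past the threshold. The 19 collagen chains lie above the diagonal, and the 16 genes of the loop of Henle, distal tubule and collecting duct lie below it, as do 5 of 6 genes of the renin and mesangial list.

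The largest rises were of a foetal growth transcript and of matrix genes. H19, an imprinted long non-coding RNA of foetal tissues (ENSMUSG00000000031.16, chr7:142575529-142578143, minus strand), had 1.07, 1.67, 13.3 and 2.6 FPKM in the sham samples and 581, 666, 296 and 258 FPKM in the UUO samples. The lowest UUO sample was above the highest sham sample, and the mean rose 96.6-fold (6.66 ± 0.53, adjusted p = 5.21e-06). Cthrc1, a secreted collagen triple helix repeat protein of activated fibroblasts, had 0.8, 0.32, 8.07 and 0.38 FPKM in the sham samples and 265, 212, 119.7 and 142 FPKM in the UUO samples. Sham replicate 3 was the highest of its group for both genes, well under the UUO samples. Timp1, an inhibitor of matrix metalloproteinases, had 6.21, 5.25, 18 and 9.64 FPKM in the sham samples and 1492, 295, 242 and 421 FPKM in the UUO samples, with UUO replicate 1 the highest and no overlap. Postn, the matricellular protein periostin (ENSMUSG00000027750.16, chr3:54361109-54391037, plus strand), had 10.6, 19.3, 20.9 and 11.4 FPKM in the sham samples and 514, 565, 314 and 640.3 FPKM in the UUO samples (4.95 ± 0.28, adjusted p = 4.91e-07).

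The other genes among the 15 largest rises were of several kinds. Matrix and collagen-processing genes were Fn1 (fibronectin, from 57 ± 36.2 to 1069 ± 137 FPKM), Fbln2 (fibulin-2, from 14.5 ± 13.8 to 379 ± 149 FPKM), Lox (lysyl oxidase, which crosslinks collagen, from 21.9 ± 17.8 to 462 ± 162 FPKM) and P4ha3 (a prolyl 4-hydroxylase subunit, from 0.275 ± 0.433 to 40.8 ± 17.2 FPKM). Surface and adhesion genes were Thy1 (from 12.3 ± 7.69 to 446 ± 158 FPKM) and Chl1 (from 0.463 ± 0.41 to 30.2 ± 20.5 FPKM). Actg2, the smooth muscle gamma actin, rose from 1.82 ± 1.59 to 105 ± 66.7 FPKM, and UUO replicate 2 held its highest value and UUO replicate 4 its lowest among UUO samples. Secreted proteins were Prg4 (lubricin, from 1.48 ± 2.15 to 54.6 ± 32.7 FPKM), Serpina3n (a protease inhibitor of the acute phase, from 16.2 ± 7.66 to 382 ± 196 FPKM) and Fgf18 (a fibroblast growth factor, from 1.25 ± 1.25 to 39.97 ± 19.4 FPKM). Mt2, a metallothionein that binds zinc and copper, had 19.4, 19.6, 45.1 and 47.7 FPKM in the sham samples and 1036, 564, 351 and 1242 FPKM in the UUO samples. All 15 had no overlap between the groups, which the rule for choosing them required.

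**Figure D2:**
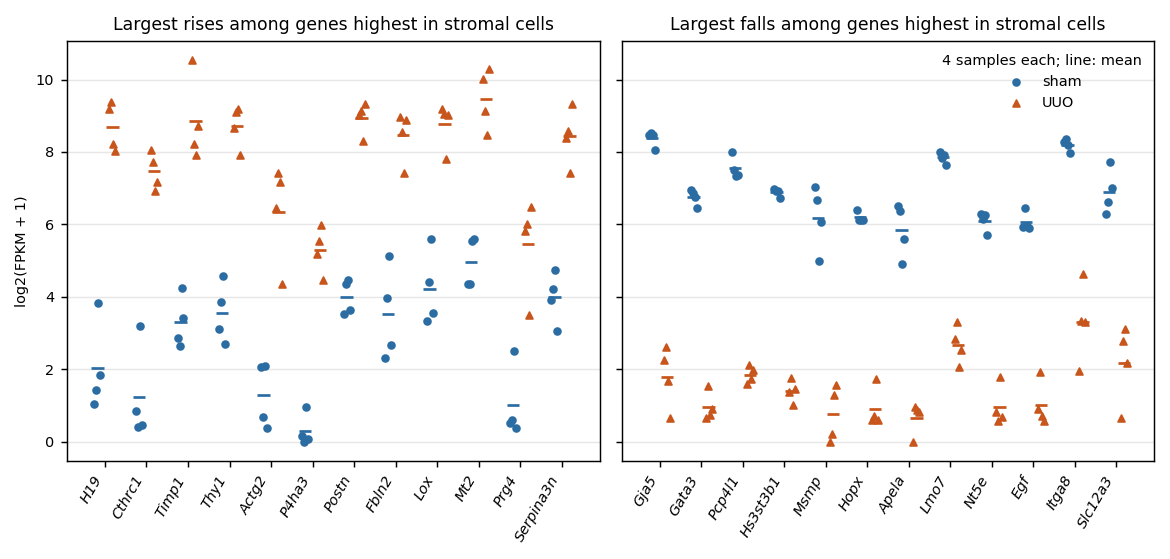
Expression in log2(FPKM + 1) of the 12 largest rises (left) and 12 largest falls (right) among genes whose level was higher in stromal cells than in the other sorted populations under the same surgery. Points are single samples (circles sham, triangles UUO, 4 each) and lines are group means. For each gene the UUO samples lie on 1 side of all sham samples, as the selection required, and sham replicate 3 is the highest sham sample for 11 of the 12 rises, all but Mt2.

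The promoters of 3 of the changed genes are printed to show the sequence around their start sites: Postn, a matrix gene, Ren1, of renin-producing cells, and Hopx, 1 of the largest falls. Each window runs from 250 bases before to 50 bases after the start site (RefSeq, GRCm38.p6), and such a window was given for 8 of the 15 largest rises and 14 of the 15 largest falls. Capitals mark TATAAA in Postn and Ren1 and a CArG box, the site of serum response factor, in Hopx.
Postn (chr3:54360857-54361156, plus strand): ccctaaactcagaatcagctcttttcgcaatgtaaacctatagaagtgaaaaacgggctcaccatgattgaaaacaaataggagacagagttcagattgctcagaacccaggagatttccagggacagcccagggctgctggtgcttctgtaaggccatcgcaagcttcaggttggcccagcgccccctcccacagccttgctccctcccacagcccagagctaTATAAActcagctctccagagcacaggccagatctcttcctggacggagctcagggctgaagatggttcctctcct
Ren1 (chr1:133350424-133350723, plus strand): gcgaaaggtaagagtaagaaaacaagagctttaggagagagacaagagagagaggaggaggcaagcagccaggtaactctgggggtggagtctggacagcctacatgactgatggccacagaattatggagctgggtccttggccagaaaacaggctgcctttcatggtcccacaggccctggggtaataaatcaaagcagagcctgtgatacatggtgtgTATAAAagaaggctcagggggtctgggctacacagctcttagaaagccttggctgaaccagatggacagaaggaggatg
Hopx (chr5:77115074-77115373, minus strand): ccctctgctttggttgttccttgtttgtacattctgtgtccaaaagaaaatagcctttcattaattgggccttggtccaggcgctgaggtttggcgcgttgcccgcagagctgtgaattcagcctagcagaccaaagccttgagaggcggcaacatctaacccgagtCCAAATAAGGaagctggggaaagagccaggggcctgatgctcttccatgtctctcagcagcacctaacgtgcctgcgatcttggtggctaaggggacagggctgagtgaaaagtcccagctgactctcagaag
The motifs searched, on both strands, were TATAAA, the AP-1 site TGANTCA, the RUNX site TGTGGT and the CArG box, which can overlap TATAAA. The first of these, TATAAA, was in 9.05% of the windows of risen genes, 8.13% of those of fallen genes and 7.03% of all 9857 windows. TGANTCA was in 5.95%, 5.14% and 4.63%, TGTGGT in 12.3%, 10.6% and 11.9%, and the CArG box in 1.88%, 1.71% and 1.29%. Most windows given for the 15 largest rises and the 15 largest falls held none of these motifs, and Hopx alone among them held a CArG box. The 3 printed windows are therefore not typical of these genes. A match is a description of the letters and no test was made.

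Collagen chains rose together. Of 19 chains tested, 18 rose, 0 fell and 1 did not pass the test, with a median change of 2.92 and of 2.75 without mitochondrial genes. Col1a1, the other chain of type I collagen, had 106, 139.7, 354 and 97 FPKM in the sham samples and 3577, 2249.5, 1779.9 and 2447 FPKM in the UUO samples. Sham replicate 3 was the highest sham sample and still under every UUO sample. Col3a1, of the type III collagen of interstitial scars, rose from 428 ± 257 to 4314 ± 1024 FPKM (3.47 ± 0.34, adjusted p = 2.27e-05), and it was the most abundant chain in UUO. The fibrillar minor chains Col5a2 (from 7.25 ± 2.86 to 115 ± 12.1 FPKM) and Col11a1 (from 1.99 ± 0.739 to 51.1 ± 28.4 FPKM) rose by 3.87 and 3.81. The chains of basement membrane type IV collagen rose least, with 1.02 for Col4a1 and 0.89 for Col4a2, and the call of Col4a2 was lost under quantile normalization (0.51). Col18a1, another basement membrane chain, had 35.8 ± 5.53 FPKM in sham and 52.8 ± 29.2 FPKM in UUO (adjusted p = 0.46). The summed level of the chains was 868 to 2504 FPKM in sham and 10477 to 14744 FPKM in UUO samples.

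Of 30 matrix glycoproteins and proteoglycans tested, 28 rose, 1 fell and 1 did not pass the test (median 2.16). Elastic fibre genes were among the risers. Fbn1 (fibrillin-1) rose from 44.6 ± 25.3 to 433 ± 36 FPKM, Mfap5 from 52 ± 7.34 to 679 ± 136 FPKM, Eln (elastin) from 51.9 ± 5.42 to 229 ± 60.2 FPKM and Ltbp2 from 4.58 ± 3.02 to 77.6 ± 27.2 FPKM. Sparc, a collagen-binding matricellular protein, rose from 1881 ± 633 to 11497 ± 2278 FPKM and Bgn, the proteoglycan biglycan, from 932 ± 101 to 4338 ± 627 FPKM. A pair of CCN proteins, which bind growth factors and integrins, went opposite ways. Ctgf, also called Ccn2, had 869.9, 607, 664 and 448 FPKM in the sham samples and 156, 299, 236 and 148 FPKM in the UUO samples and fell (−1.64 ± 0.26, adjusted p = 6.75e-04), while Cyr61, also called Ccn1, had 36.2, 23.5, 18.5 and 26.1 FPKM in the sham samples and 131, 89.7, 113 and 108 FPKM in the UUO samples and rose (2.07 ± 0.23, adjusted p = 4.54e-05). The groups did not overlap for either gene. Both directions held under every rescaling. Fmod had 72.6 ± 74.3 FPKM in sham and 121 ± 36.1 FPKM in UUO and did not pass the test, except without sham replicate 3 (1.72).

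Enzymes that fold, cleave and crosslink collagen rose with the chains. Of 16 tested, 15 rose, 0 fell and 1 did not pass the test (median 1.94). Beside Lox and P4ha3, Loxl2 rose from 15.2 ± 4.74 to 145 ± 24 FPKM, Bmp1, the procollagen C-proteinase, from 8.37 ± 3.72 to 78.4 ± 12.5 FPKM, and Serpinh1, the collagen chaperone HSP47, from 130.4 ± 31.2 to 626 ± 188 FPKM. General chaperones of the endoplasmic reticulum moved less. Of 17 genes of protein folding and the unfolded protein response, 9 rose, 1 fell and 7 did not pass the test (median 0.84). Without mitochondrial genes 6 of them rose (median 0.66), and with single samples left out 7 to 9 did. The disulphide isomerases Pdia3 (from 134 ± 19.8 to 334 ± 43.7 FPKM) and Pdia6 (from 43.7 ± 8.26 to 111 ± 17.4 FPKM) rose, and Hspa5, the chaperone BiP, had 203 ± 84.5 FPKM in sham and 342 ± 82.5 FPKM in UUO (adjusted p = 0.0655), which passed without sham replicate 2 (1.06). The 1 fall in that list, Ddit3 (−0.97), was lost when UUO replicate 3 or 4 or sham replicate 1, 2 or 3 was left out (−0.79 to −0.98).

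Of 21 matrix proteases and their inhibitors tested, 13 rose, 3 fell and 5 did not pass the test (median 1.43). Mmp14, the membrane-bound collagenase that activates other proteases, rose from 54.2 ± 13 to 417 ± 98.5 FPKM, Mmp2, a gelatinase, from 87.2 ± 17.4 to 321 ± 39.4 FPKM, and Adam12 from 9.64 ± 1.02 to 95.1 ± 14.7 FPKM. Among inhibitors, Timp1 rose as above. Timp2 had 276 ± 55.7 FPKM in sham and 336 ± 74.1 FPKM in UUO and Timp3 483 ± 47.8 FPKM in sham and 605 ± 289 FPKM in UUO, without a call (adjusted p = 0.386 and 0.682). The aggrecanase-type proteases split. Adamts5 fell from 185 ± 33.1 to 53.3 ± 23.4 FPKM and Adamts1 from 118 ± 22.9 to 44.2 ± 18.5 FPKM, whereas Adamts4 rose from 2.06 ± 1.05 to 21.3 ± 6.96 FPKM. The third fall of the list, Plau (−1.11), was lost without UUO replicate 1 or 2 or sham replicate 1, 2 or 3 (−0.74 to −1.11).

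**Figure D3:**
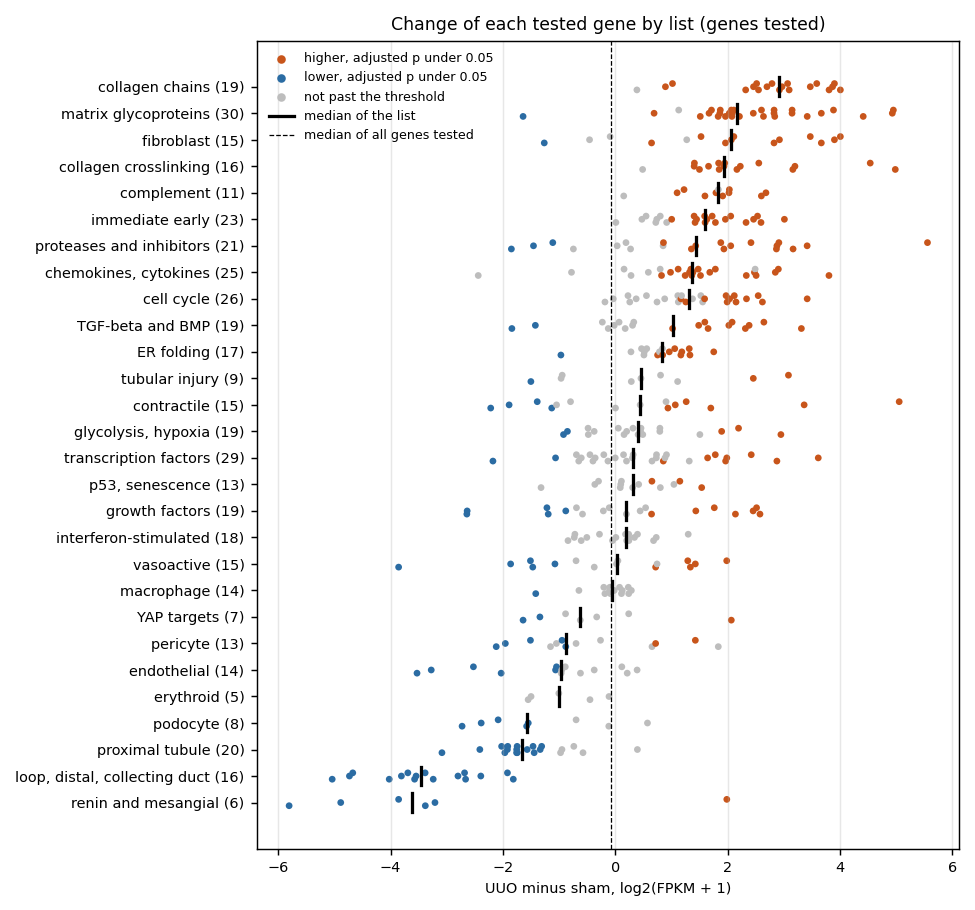
Change of each tested gene (UUO minus sham, log2(FPKM + 1)) by gene list, ordered by the list's median, with the number of genes tested in brackets. Orange and blue points passed the threshold higher and lower, grey points did not, thick lines are list medians and the dashed line is the median of all genes tested (−0.07). Collagen chains lead with a median of 2.92, and the renin and mesangial list is lowest at −3.62.

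Signals that act on fibroblasts changed in both directions. Of 19 genes of TGF-beta and BMP signalling, 10 rose, 2 fell and 7 did not pass the test (median 1.02). Inhba, the activin A subunit, rose from 6.99 ± 1.94 to 91.5 ± 68.6 FPKM, Tgfb3 from 13.9 ± 4.19 to 72.7 ± 18.5 FPKM and the receptors Tgfbr1 from 7.84 ± 0.744 to 27 ± 4.47 FPKM and Tgfbr2 from 43.1 ± 9.95 to 131 ± 16.3 FPKM. Tgfb1 had 37.1 ± 6.07 FPKM in sham and 53.5 ± 35.5 FPKM in UUO (adjusted p = 0.585). Bmp2 fell from 5.75 ± 1.22 to 0.975 ± 0.751 FPKM. The other fall, Bmp4 (−1.42), was lost without UUO replicate 2 (−1.31), sham replicate 1 (−1.33) or sham replicate 4 (−1.38).

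Of 19 growth factor genes, 7 rose, 5 fell and 7 did not pass the test. Igf1 had 34.7, 57, 112 and 47.7 FPKM in the sham samples and 373, 353, 175 and 441 FPKM in the UUO samples, with all UUO samples above all sham samples. Its binding protein Igfbp5 had 1438, 1334, 1436 and 982 FPKM in the sham samples and 153, 214, 429 and 127 FPKM in the UUO samples and fell without overlap. Hgf, a growth factor for epithelium, rose from 2.27 ± 0.172 to 18.3 ± 5.69 FPKM, Fgf2 from 6.51 ± 1.34 to 25.1 ± 7.38 FPKM, Fgf7 from 6.4 ± 3.29 to 31 ± 10.7 FPKM and Igf2 from 5.32 ± 2.29 to 41.1 ± 28.6 FPKM. Of 4 PDGF ligands, 3 fell. Pdgfb went from 12.2 ± 3.59 to 1.35 ± 1.56 FPKM, Pdgfa from 28.2 ± 5.8 to 12.2 ± 4.32 FPKM and Pdgfc from 20.4 ± 3.35 to 8.13 ± 0.496 FPKM, while Pdgfd had 16.1 ± 4.7 FPKM in sham and 11.2 ± 6.36 FPKM in UUO (adjusted p = 0.284).

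Most chemokines, cytokines and their receptors rose. Of 25 tested, 18 rose, 0 fell and 7 did not pass the test (median 1.36), and 14 to 16 rose when single samples were left out. Il34 passed as lower without UUO replicate 3 (−1.36). Cxcl13, which draws B lymphocytes, had a change of −2.44 (adjusted p = 0.0503) and passed as lower without UUO replicate 4 (−3.50) and in 5 other settings, such as without mitochondrial genes and with the replicate block. Il33, an alarmin held in the nucleus of stromal cells, had 7.13, 6.51, 9.83 and 10.9 FPKM in the sham samples and 134, 138, 115 and 136 FPKM in the UUO samples (3.81 ± 0.21, adjusted p = 4.91e-07). All 4 UUO samples were above the sham samples. Cxcl12, which retains leukocytes and progenitors, rose from 33.5 ± 12.6 to 283 ± 161 FPKM, and the monocyte attractants Ccl2 and Ccl7 rose from 3.01 ± 1.61 to 19.9 ± 4.08 FPKM and from 0.642 ± 0.695 to 13.5 ± 11 FPKM. The receptors Il1r1 (from 14 ± 1.42 to 75.8 ± 16.1 FPKM) and Osmr (from 33.2 ± 8.51 to 72.4 ± 11.3 FPKM) rose as well. Genes induced by interferon form a further list. Of 18 tested, 0 passed the threshold by limma, where 12.3% of all genes rose and 12.2% fell, and at an unadjusted p under 0.05 3 did. Isg15 had 20.6 ± 7.78 FPKM in sham and 31 ± 22.1 FPKM in UUO and Cxcl10 27 ± 11.5 FPKM in sham and 31.5 ± 9.64 FPKM in UUO. Leaving out single samples called at most 1 of them higher (without UUO replicate 1 or 3) and 2 lower (without UUO replicate 2).

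Complement genes rose in 9 of 11 cases and fell in 0 (median 1.84). The groups did not overlap for 6 of the 9. With single samples left out 6 to 10 rose, and without mitochondrial genes 8 did. Serping1, the C1 inhibitor, rose from 513 ± 223 to 1732 ± 553 FPKM and C2 from 14.7 ± 10.2 to 57.6 ± 24.9 FPKM. C3 had 96.3, 281, 580.4 and 66 FPKM in the sham samples and 516, 777, 158 and 2715 FPKM in the UUO samples. Its groups overlapped and it did not pass (adjusted p = 0.112), except without sham replicate 3 (2.40) or UUO replicate 3 (2.51).

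Immediate early genes, transcription factors and feedback regulators that are induced fast by growth factors, stress and tissue dissociation, rose in 16 of 23 cases and fell in 0 (median 1.59). Fos had 25.9, 32.4, 27.4 and 20.7 FPKM in the sham samples and 102, 87.7, 93.7 and 191 FPKM in the UUO samples, and Egr1 rose from 88.9 ± 16 to 356 ± 106 FPKM, Egr2 from 11.2 ± 1.49 to 99.5 ± 25.3 FPKM and Myc from 2.9 ± 0.785 to 21.3 ± 8.31 FPKM. Socs3, a feedback inhibitor of cytokine receptors, rose from 5.63 ± 3.35 to 36.4 ± 11.8 FPKM. All UUO samples for these 5 genes were above all sham samples. The heat shock gene Hspa1a had 11.4 ± 2.98 FPKM in sham and 18.7 ± 9.25 FPKM in UUO, without a call (adjusted p = 0.315). The part of the cell sorting procedure in these levels was not tested.

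Of 26 cell cycle genes, 12 rose, 0 fell and 14 did not pass the test (median 1.32). Ccnb2, a mitotic cyclin, had 0.09, 0.23, 0.58 and 0.15 FPKM in the sham samples and 37.2, 4.72, 6.89 and 17.5 FPKM in the UUO samples. Mki67, the proliferation marker Ki-67, had 2.35, 2.51, 0.52 and 1.14 FPKM in the sham samples and 25.6, 6.34, 9.21 and 6.48 FPKM in the UUO samples. UUO replicate 1 was the highest for both, and the groups did not overlap. The summed list was 88.8 to 108 FPKM in sham and 157 to 469.8 FPKM in UUO samples. Among genes of DNA replication, Mcm6 rose from 4.62 ± 0.986 to 11.6 ± 1.88 FPKM, while Pcna had 45.1 ± 9.76 FPKM in sham and 43.3 ± 4.43 FPKM in UUO, without a call (adjusted p = 0.925). Of 13 p53 and senescence genes, 3 rose, 0 fell and 10 did not pass the test, where 12.3% of all genes rose and 12.2% fell. In this list 5 rose without UUO replicate 1 and 1 fell without sham replicate 3. Plk2 rose from 9.96 ± 1.53 to 23.4 ± 4.38 FPKM, and Cdkn1a, the cell cycle inhibitor p21, had 51.6 ± 16.6 FPKM in sham and 93.9 ± 40.1 FPKM in UUO (adjusted p = 0.0692) and passed without UUO replicate 4 (0.99) or sham replicate 1 (1.00).

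Transcription factors of mesenchymal cells rose in 8 of 29 cases and fell in 2, and in 4 without UUO replicate 3. Across all genes tested 12.3% rose and 12.2% fell. Runx1, a runt-family factor, had 3.27, 4.68, 3.5 and 3.13 FPKM in the sham samples and 65.4, 68.7, 57.9 and 36.4 FPKM in the UUO samples (3.62 ± 0.26, adjusted p = 2.63e-06). No sham sample reached a UUO sample. Prrx1, a homeobox factor of fibroblasts, rose from 14.6 ± 15.9 to 81.7 ± 19.8 FPKM, and the hedgehog effectors Gli1, Gli2 and Gli3 rose from 1.44 ± 0.643 to 6.42 ± 0.766 FPKM, from 1.75 ± 0.904 to 11.2 ± 9.13 FPKM and from 3.67 ± 1.48 to 14.5 ± 2.22 FPKM. Foxc1 fell from 12.4 ± 1.36 to 2 ± 0.594 FPKM, and the other fall, Nr2f1 (−1.06), was lost when UUO replicate 3 or 4 or sham replicate 1, 2 or 3 was left out (−0.80 to −1.11). Snai2, a regulator of mesenchymal transition, had 15.3 ± 1.92 FPKM in sham and 20.3 ± 8.28 FPKM in UUO (adjusted p = 0.429).

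Contractile genes split. Of 15 tested, 6 rose, 4 fell and 5 did not pass the test, and the list's median was 0.44, but −0.12 under quantile normalization. Acta2, the smooth muscle actin of myofibroblasts, had 249.9, 169.6, 56.4 and 79.8 FPKM in the sham samples and 376, 518, 553 and 204 FPKM in the UUO samples (1.70 ± 0.44, adjusted p = 0.0134). Sham replicate 1 was above UUO replicate 4, and the call was lost under quantile normalization (1.22) and when genes of low level were kept in the test. Tagln rose from 54.9 ± 16.2 to 132 ± 34.2 FPKM. Myl9, the regulatory light chain of smooth muscle myosin, had 890.5, 673, 807 and 533 FPKM in the sham samples and 167, 199, 290.2 and 140.0 FPKM in the UUO samples and fell without overlap. The intermediate filament gene Des fell from 112 ± 20.05 to 24.3 ± 10.04 FPKM and Mylk, the myosin light chain kinase, from 132 ± 27.9 to 53 ± 26.9 FPKM. Myh11, the heavy chain of mature smooth muscle, had 39.5 ± 26.5 FPKM in sham and 18.1 ± 11.1 FPKM in UUO (adjusted p = 0.19).

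Of 13 pericyte genes, 2 rose, 5 fell and 6 did not pass the test (median −0.88). With single samples left out 3 to 8 of them fell and 1 to 3 rose, with 8 falls without UUO replicate 3 and 3 without sham replicate 2. Mcam (CD146) fell from 78.4 ± 14.2 to 19.2 ± 9.57 FPKM and Cspg4 (NG2) from 57.2 ± 9.91 to 14.7 ± 6.6 FPKM. Kcnj8, a channel subunit of pericytes, rose from 7.75 ± 1.78 to 23 ± 7.34 FPKM, and Rgs5 had 268 ± 110.3 FPKM in sham and 220.2 ± 88.7 FPKM in UUO (adjusted p = 0.624). Fibroblast genes went the other way. Of 15, 11 rose, 1 fell and 3 did not pass the test. With single samples left out 9 to 12 rose, and without mitochondrial genes 10 did. The list shares members with the collagen and matrix lists above, such as Col1a1, Col1a2, Col3a1 and Mfap5. Its counts and its sum are therefore not separate from theirs. Lum (lumican) rose from 55.3 ± 26.7 to 377 ± 81.1 FPKM and Pi16, a gene of adventitial fibroblasts, from 63.5 ± 20.8 to 272 ± 89.5 FPKM, while Cd34 fell from 175 ± 18.6 to 73.5 ± 16.9 FPKM. The summed fibroblast list was 1512 to 3885 FPKM in sham and 10539 to 17318 FPKM in UUO samples, with sham replicate 3 the highest sham sample.

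The largest falls included genes of renin-producing and mesangial cells. Gja5, connexin 40, which couples renin-producing cells (ENSMUSG00000057123.14, chr3:96904693-97077416, plus strand), had 356, 368, 352 and 266 FPKM in the sham samples and 3.78, 5.15, 2.16 and 0.57 FPKM in the UUO samples. The highest UUO sample was far below the lowest sham sample, and the mean was 115-fold lower (−6.59 ± 0.36, adjusted p = 4.91e-07). Gja5 was also expressed in sorted endothelial cells, with means of 114.6 FPKM in sham and 115.5 FPKM in UUO. Gata3, a transcription factor of mesangial cells, had 124, 115, 107 and 86.5 FPKM in the sham samples and 0.56, 1.9, 0.66 and 0.85 FPKM in the UUO samples. Ren1, renin itself (ENSMUSG00000070645.5, chr1:133350510-133360325, plus strand), had 218, 135, 19.4 and 128 FPKM in the sham samples and 4.94, 23.5, 11.2 and 4.98 FPKM in the UUO samples. UUO replicate 2 was above sham replicate 3, the lowest sham sample, and the mean was 11.2-fold lower (−3.21 ± 0.66, adjusted p = 0.00367). Of the 6 genes of the renin and mesangial list, 1 rose, 5 fell and 0 did not pass the test (median −3.62). Itga8, the mesangial integrin chain, fell from 293 ± 32.6 to 11.1 ± 8.9 FPKM, Agtr1a, the angiotensin II receptor, from 310.1 ± 34.9 to 22.9 ± 11.1 FPKM, and Akr1b7, an aldo-keto reductase of renin cells, from 27.2 ± 6.44 to 2.12 ± 1.77 FPKM. Tbx18, a factor of mural cells, rose from 1.17 ± 1.09 to 7.15 ± 2 FPKM. The summed list was 754 to 1029 FPKM in sham and 23.1 to 82.2 FPKM in UUO samples, and in the other sorted populations it averaged 12 to 30.5 FPKM.

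Other genes among the largest falls were Pcp4l1 (from 189.8 ± 44.5 to 2.63 ± 0.599 FPKM), Hs3st3b1, a heparan sulphate sulphotransferase (from 118 ± 8.92 to 1.69 ± 0.568 FPKM), Hopx, a homeodomain-only protein (from 72.3 ± 7.59 to 0.998 ± 0.89 FPKM), Lmo7 (from 231 ± 23.9 to 5.69 ± 2.37 FPKM) and Nt5e, the ectonucleotidase CD73 (from 68.3 ± 11.9 to 1.06 ± 0.907 FPKM). Msmp fell from 81.6 ± 42.7 to 0.885 ± 0.954 FPKM and Erich4 from 37.4 ± 8 to 0.198 ± 0.119 FPKM. Apela, a ligand of the apelin receptor, fell from 62.2 ± 29.1 to 0.635 ± 0.429 FPKM. Receptors and channels of vessel tone changed both ways. Of 15 tested, 5 rose, 5 fell and 5 did not pass the test, and the median of 0.02 changed sign with the scale (−0.15 without mitochondrial genes). The number that rose was 3 when UUO replicate 1 or 2 or sham replicate 1, 2 or 3 was left out. Ednra, the endothelin receptor of smooth muscle, rose from 29.1 ± 7.67 to 79.1 ± 37.5 FPKM and Adora2a, an adenosine receptor, from 3.4 ± 1.29 to 16.6 ± 6.31 FPKM. Gucy1b3, a subunit of the nitric oxide receptor, fell from 31.3 ± 3.62 to 11.4 ± 6.26 FPKM and Npr1, the receptor of atrial natriuretic peptide, from 11.7 ± 4.89 to 3.71 ± 2.27 FPKM.

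Genes of other kidney cells were detected in the sorted samples, at levels that differed between the groups. Whether they were carried RNA or expressed by the sorted cells was not tested. The proximal tubule list summed to 207 to 323 FPKM in sham and 61.3 to 121 FPKM in UUO samples, against 11886 FPKM in sham and 4842 FPKM in UUO PT cells. Of 20 tested, 0 rose, 15 fell and 5 did not pass the test (median −1.66). Kap, an androgen-regulated proximal tubule protein, went from 68 ± 15.1 to 11.8 ± 1.25 FPKM, and Cyp2e1, a cytochrome P450, from 22.3 ± 11.7 to 1.5 ± 0.148 FPKM. Read as carried PT RNA, the list amounted to 1.68 to 2.70% of the PT level in sham and 0.704 to 1.68% in UUO samples. With this amount of the PT profile taken off, the list had a median of −0.02, with 2 members lower and 1 higher, and 3348 of 13834 genes were called, of which 3326 were among the 3411. The amount was set from this same list, so a list median near 0 follows from the step. It says nothing of where the RNA came from, and the 1 higher member was not called before the step. The PT UUO profile includes 1 sample whose title names both sham and UUO and whose treatment label is UUO. Without that sample 3350 genes were called, 3327 of them among the 3411, and the list's median was 0.0852.

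Genes of the loop of Henle, distal tubule and collecting duct fell. Of 16 tested, 0 rose, 16 fell and 0 did not pass the test (median −3.47, and −3.60 after the PT profile was taken off). Egf, made in the distal tubule, had 59.6, 86.9, 61.2 and 59 FPKM in the sham samples and 0.85, 2.81, 0.62 and 0.48 FPKM in the UUO samples. Slc12a3, the thiazide-sensitive transporter, had 77, 97.6, 211 and 126 FPKM in the sham samples and 0.56, 5.9, 7.6 and 3.46 FPKM in the UUO samples, with sham replicate 3 the highest. All UUO samples were below all sham samples for each of the 16 genes. A further pair of distal nephron genes, Klk1 (from 547 ± 193 to 19.3 ± 5.62 FPKM) and S100g (from 459 ± 328 to 13.8 ± 3.17 FPKM), were among the 15 largest falls. The summed list was 642 to 867 FPKM in sham and 37.7 to 77.1 FPKM in UUO samples. In the other populations it averaged 598 FPKM in sham and 175 FPKM in UUO endothelial cells, 113 and 44.8 FPKM in macrophages, and 78.4 and 609.9 FPKM in PT cells. The sum in sham stromal cells was thus above that in sham PT cells, and its source was not tested.

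Some podocyte and endothelial genes fell too. Of 8 podocyte genes, 0 rose, 5 fell and 3 did not pass the test, with Podxl from 38.4 ± 15.3 to 4.74 ± 1.47 FPKM and Wt1 from 60.3 ± 15.8 to 13.7 ± 5.38 FPKM. Of 14 endothelial genes, 0 rose, 6 fell and 8 did not pass the test. Ehd3, of glomerular endothelium, fell from 91.5 ± 16.6 to 7.7 ± 4.57 FPKM and Plvap from 34.8 ± 4.36 to 3.15 ± 2.5 FPKM, while Cdh5 (VE-cadherin) had 3.76 ± 1.39 FPKM in sham and 5.76 ± 3.58 FPKM in UUO (adjusted p = 0.532). Their sums were 217 to 336 FPKM in sham and 139.8 to 191 FPKM in UUO samples for podocytes, and 369 to 469.5 FPKM in sham and 101 to 177 FPKM in UUO samples for endothelium. The latter compares with 4757 and 4493 FPKM in sorted endothelial cells. Of 14 macrophage genes, 0 rose, 1 fell and 13 did not pass the test, where 12.3% of all genes rose and 12.2% fell. The macrophage sum was 125 to 148 FPKM in sham and 92.1 to 214 FPKM in UUO samples, against 22873 FPKM in sham macrophages. Csf1r, the macrophage growth factor receptor, fell from 10.2 ± 2.64 to 3.15 ± 0.855 FPKM. Of the 13 lymphocyte and neutrophil genes 2 averaged 1 FPKM or more across the 8 samples, and Cd3d, Cd3g and Ly6g were at 0 in all 8 samples. S100a9, a neutrophil gene, had 0.42, 0, 0 and 0 FPKM in the sham samples and 14.1, 42.7, 2.46 and 4.34 FPKM in the UUO samples. It therefore passed this filter only through its UUO values. The erythroid list summed to 11.9 to 277 FPKM in sham and 11.8 to 62.3 FPKM in UUO samples, with the highest value in sham replicate 2. The part of these cells in the changes of stromal genes was not tested, apart from the PT profile above.

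**Figure D4:**
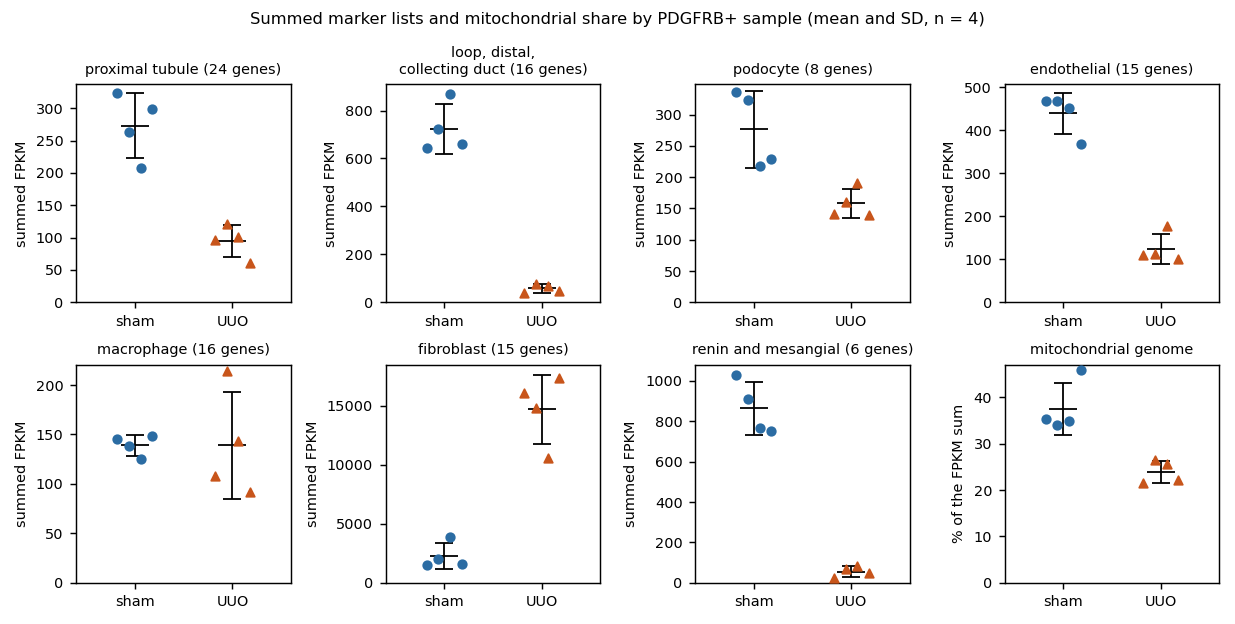
Summed FPKM of 7 marker lists and the share of the FPKM sum in mitochondrial genes (%), for each PDGFRB+ sample (circles sham, triangles UUO), with mean and SD (n = 4). UUO samples lie below sham samples for proximal tubule, loop and distal nephron, podocyte, endothelial and renin and mesangial genes and for the mitochondrial share, above them for fibroblast genes, and the groups overlap for macrophage genes.

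Markers of tubular injury were measured for the same reason. Of 9 tested, 2 rose, 1 fell and 6 did not pass the test (median 0.46), where 12.3% of all genes rose and 12.2% fell. Lcn2, the injury marker NGAL, had 4.94, 5.9, 12.6 and 1.67 FPKM in the sham samples and 52.9, 47.2, 23 and 123 FPKM in the UUO samples, and Spp1, osteopontin, 148, 153, 181 and 168 FPKM in the sham samples and 971, 653, 1051 and 961 FPKM in the UUO samples. Both were higher in every UUO sample, and the list's sum in PT cells was 188 FPKM in sham and 4137 FPKM in UUO. Lcn2 and Spp1 were still called higher after the PT profile was taken off, and the source of their RNA was not tested. Havcr1, the proximal tubule injury marker KIM-1, had 0.627 ± 0.294 FPKM in sham and 2.02 ± 1.29 FPKM in UUO (adjusted p = 0.175). The third call, a fall of Krt7 (−1.50), was lost when any sample but UUO replicate 3 or sham replicate 4 was left out (−1.23 to −1.49).

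Of 19 genes of glycolysis and hypoxia, 3 rose, 2 fell and 14 did not pass the test (median 0.41), counts near the 12.3% of all genes that rose and the 12.2% that fell. Hk2, an inducible hexokinase, had 0.66, 0.39, 0.13 and 0.16 FPKM in the sham samples and 13.1, 16, 9.31 and 3.38 FPKM in the UUO samples, and Ldha, a subunit of lactate dehydrogenase, rose from 90.5 ± 18.1 to 338 ± 62.5 FPKM. UUO samples were above sham samples for both. Both falls were lost when UUO replicate 2 or sham replicate 1, 2 or 3 was left out. Gapdh had 725 ± 113 FPKM in sham and 967 ± 187 FPKM in UUO (adjusted p = 0.133). Of 7 targets of YAP, a factor that responds to stretch, 1 rose, 2 fell and 4 did not pass the test. The same shares of all genes, 12.3% and 12.2%, stand beside these counts. Cyr61 and Ctgf are given above, and the third call, a fall of Ajuba (−1.34), was lost without UUO replicate 1 or 4 or sham replicate 1, 2 or 3 (−1.08 to −1.33).

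The change in stromal cells was then compared with that in the other sorted populations under the same surgery, to see where it differed. The stromal change differed from the PT change at an adjusted p under 0.05 by limma for 29.1% of genes tested, from the macrophage change for 15.9% and from the endothelial change for 13.2%. Without the PT sample of ambiguous title the numbers of genes were 3825 in place of 4044, 2158 in place of 2209 and 1809 in place of 1844. Samples of different populations were treated as independent in these tests, although some may come from the same mouse.

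The 12 largest rises and 12 largest falls among genes highest in stromal cells were chosen for their change and level in stromal cells, so their values in the other populations are a description with no test. Changes of the 12 rises ran from 0.04 to 2.31 in PT cells, from −2.14 to 1.95 in macrophages and from −0.85 to 1.53 in endothelial cells. Timp1 had the largest change elsewhere, 2.31 in PT cells, 3.25 less than in stromal cells. Among the falls, Egf had changes of −5.04 in stromal and −4.06 in endothelial cells. Gata3 and Apela fell in stromal cells while they changed by 2.67 and 2.71 in PT cells.

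**Figure D5:**
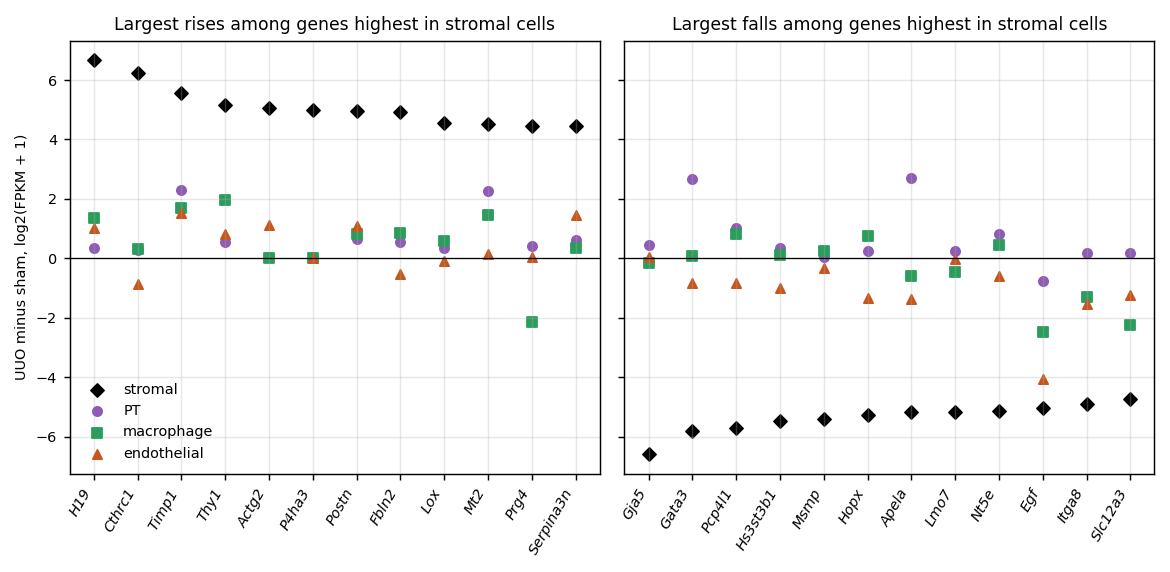
Change (UUO minus sham, log2(FPKM + 1)) of the same 12 rises and 12 falls in stromal, PT, macrophage and endothelial cells, from group means. The genes were chosen for a large change in stromal cells (diamonds), which fixes their place at the edge, and the change nearest to it is that of Egf in endothelial cells (−4.06).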

How the data were processed

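Gene expression of the 8 PDGFRB+ samples (4 sham, 4 UUO) was taken from 1 table of FPKM for 53465 genes, which the authors deposited rounded to 2 decimals. The FPKM were made by the authors from paired-end reads. The submitters' processing notes name FastQC, Bowtie2, RSEM, DESeq2 and mm10 (GRCm38) without versions or order, and do not state the role of RSEM and DESeq2. As FPKM are relative to all mapped fragments, a class that takes fewer fragments raises the others, and rounding and amplification limit low values.

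Genes averaging 1 FPKM or more across the 8 samples were tested on the log2(FPKM + 1) scale by limma 3.58.1 (lmFit, then eBayes with trend), with Benjamini-Hochberg adjustment over all genes tested and a threshold of 0.05. Differences between populations were limma contrasts over the sham and UUO samples of all 4 populations. The mitochondrial share was compared by an exact permutation test, and for summed lists no test was made. The members and the 29 gene lists were chosen with earlier results of these data known. Named genes were the given markers, the 15 largest rises and falls among called genes without overlap, the 12 largest highest in stromal cells, and members of each list with the largest changes or needed to account for it. Clone names were left out. A few table symbols differ from current ones, as in Ctgf for Ccn2. Carried PT RNA was taken off as the share that the proximal tubule list gives, times the mean PT profile under the same surgery. In PT UUO, 1 sample was grouped by its treatment label, as its title names both sham and UUO. Of 46 value columns 44 were used, as 2 share 1 name. The fit was tested on simulated data with known changes. R 4.3.3 ran limma, and Python 3.11.15 (pandas 2.3.3, numpy 2.4.6, matplotlib 3.10.9, scipy 1.17.1) the rest.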

Additional observations from a re-analysis of the deposited data

Results flagged for a closer look

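Among 332 groups of 4 samples, 1 group of sham and 1 of UUO for each gene named, a single sample stood far from the others in 27. Its gap to the nearest sample on the log2(FPKM + 1) scale, divided by the range of the group, was above Dixon's 95% critical value for 4 samples, which chance exceeds in about 1 in 20 groups. Values below are FPKM of that sample against the range of the other 3 samples of its group. Sham replicate 1 was the highest for Hopx (83.7 against 68.1 to 69.2) and S100a9 (0.42 against 0). Sham replicate 2 was the highest for Egf (86.9 against 59 to 61.2). Sham replicate 3 was the highest for Cthrc1 (8.07 against 0.32 to 0.8), Dlk1 (21.8 against 0.22 to 0.45), Pi16 (94.6 against 51 to 54.8), Prg4 (4.7 against 0.3 to 0.51) and Tbx18 (2.8 against 0.6 to 0.64). Sham replicate 3 was the lowest for Csf1r (6.27 against 11 to 12), Gli1 (0.48 against 1.71 to 1.8) and Pcna (30.7 against 47.5 to 51.1). Sham replicate 4 was the highest for Igf2 (8.75 against 4.01 to 4.33). Sham replicate 4 was the lowest for Bmp2 (3.95 against 6.11 to 6.54), Col4a2 (76.1 against 121 to 129.5), Gja5 (266 against 352 to 368) and Myc (1.73 against 3.15 to 3.39). UUO replicate 1 was the lowest for Apela (0 against 0.77 to 0.94) and Timp2 (226 against 357 to 384). UUO replicate 3 was the highest for Gli2 (24.8 against 6.05 to 7.53) and Hopx (2.33 against 0.5 to 0.64). UUO replicate 3 was the lowest for Col1a2 (2207 against 3035 to 3162), Il33 (115 against 134 to 138), Lox (222 against 518 to 579) and Pdgfc (7.39 against 8.28 to 8.44). UUO replicate 4 was the highest for Fn1 (1275 against 992 to 1006) and Hspa5 (465 against 297 to 303). UUO replicate 4 was the lowest for Col11a1 (8.65 against 63.2 to 67.5).

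The genes below were chosen for a large change and the highest level in stromal cells, so a larger change there than in other populations was set by the choice and is no support. The differences are given as a description, with the population whose change was nearest. Among the rises, PT cells had the change nearest to that of stromal cells for Timp1 (difference 3.25), P4ha3 (difference 4.95), Mt2 (difference 2.23) and Prg4 (difference 4.06). Among the rises, macrophages had the change nearest to that of stromal cells for H19 (difference 5.32), Cthrc1 (difference 5.92), Thy1 (difference 3.21), Fbln2 (difference 4.10) and Lox (difference 3.96). Among the rises, endothelial cells had the change nearest to that of stromal cells for Actg2 (difference 3.93), Postn (difference 3.88) and Serpina3n (difference 2.99). Among the falls, macrophages had the change nearest to that of stromal cells for Gja5 (difference −6.44), Lmo7 (difference −4.71) and Slc12a3 (difference −2.47). Among the falls, endothelial cells had the change nearest to that of stromal cells for Gata3 (difference −4.98), Pcp4l1 (difference −4.88), Hs3st3b1 (difference −4.49), Msmp (difference −5.10), Hopx (difference −3.96), Apela (difference −3.81), Nt5e (difference −4.56) and Itga8 (difference −3.34). Samples of the 4 populations may share mice.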

How the results depend on the processing

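Under the 18 other settings between 2520 and 3793 genes passed the threshold, in place of 3411, and the genes called under both settings kept their direction in each. With single samples left out the number was 2520 to 3415, lowest without sham replicate 1 (2520) and sham replicate 2 (2531). Without a filter on low values 2744 of 26696 genes passed, and with a mean of at least 5 FPKM 2644 of 8877. Replicate numbers are shared between the groups, but same-numbered samples did not deviate together (correlations −0.0623 to 0.00889), so they were not taken as pairs. With the replicate number as a replicate block 2988 genes passed (1525 higher, 1463 lower), and of the named genes Cxcl13 alone changed its call, to lower. Leaving out the PT sample of ambiguous title was chosen after seeing the data. The difference from PT, macrophage and endothelial changes was called for 4132, 2328 and 1783 genes without mitochondrial genes and for 3357, 2287 and 1885 after quantile normalization, in place of 4044, 2209 and 1844. The mitochondrial share differed by −14.7 to −10.8 percentage points with single samples left out. Of 142 named genes past the threshold, 134 passed under each alternative run for them, although 7 of the named genes were below 5 FPKM and single genes were below the filter in other settings. Directions changed for genes that passed under no setting. Under quantile normalization Gapdh was at −0.17, Timp2 at −0.30 and Timp3 at −0.43. On the scale of equal sums Pcna was at 0.0718. With single samples left out Cxcl10 ranged from −0.0631 to 0.50, Isg15 from −0.0392 to 0.67, Pcna from −0.21 to 0.0374, Tgfb1 from −0.0803 to 0.66 and Timp3 from −0.0347 to 0.46. Why these moved was not tested. Depth is unknown in FPKM, and 4 samples a group limit small changes.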

Other observations

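The rise of H19 led to a look at other imprinted genes, which are expressed from 1 parental allele and many of which act on foetal growth. The set was chosen after values had been seen, so its counts are a description. Of 12 such genes, 9 rose, 0 fell and 3 did not pass the test, where 12.3% of all genes rose and 12.2% fell. Rian, a long non-coding RNA of the Dlk1 region, had 3.04, 6.07, 7.39 and 2.75 FPKM in the sham samples and 103, 113, 38.4 and 89.97 FPKM in the UUO samples. Grb10, an adaptor that restrains insulin and IGF signalling, rose from 16.5 ± 2.7 to 122 ± 9.15 FPKM, Peg3 from 16.2 ± 3.21 to 65.6 ± 13.9 FPKM, Plagl1, a zinc finger regulator of other imprinted genes, from 6.67 ± 1.55 to 30.4 ± 13.4 FPKM, and Mest from 2.94 ± 2.43 to 19.9 ± 7.3 FPKM. Igf2r, the receptor that clears IGF2, rose from 8.32 ± 0.439 to 33.4 ± 2.57 FPKM beside Igf2 itself (from 5.32 ± 2.29 to 41.1 ± 28.6 FPKM). The UUO samples were above all sham samples for each of these risen genes, where 10.9% of all genes tested rose without overlap. Those that did not pass were Cdkn1c (38.1 ± 7.18 FPKM in sham and 57.5 ± 12.5 FPKM in UUO), Mirg (0.375 ± 0.491 FPKM in sham and 2.18 ± 2.08 FPKM in UUO) and Dlk1, which had 0.22, 0.3, 21.8 and 0.45 FPKM in the sham samples and 7.53, 3.27, 0.92 and 11.6 FPKM in the UUO samples. Without sham replicate 3 the change of Dlk1 was 2.04 and passed, and without UUO replicate 2 that of Cdkn1c was 0.72 and passed.

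Secreted regulators of Wnt signalling, also chosen after values had been seen, went both ways. Of 7 such genes, 5 rose, 2 fell and 0 did not pass the test, where 12.3% of all genes rose and 12.2% fell. These counts are a description. Sfrp1, a decoy for Wnt ligands, had 36, 42.5, 83.5 and 62.7 FPKM in the sham samples and 809, 1062, 499 and 672 FPKM in the UUO samples, whereas its relative Sfrp2 had 865, 886, 1135 and 654 FPKM in the sham samples and 176, 142, 40.3 and 372 FPKM in the UUO samples. Dkk2, which blocks the Wnt co-receptor, fell from 354 ± 38.8 to 46.5 ± 24 FPKM, and Wisp1, a Wnt-induced matricellular protein, rose from 4.78 ± 0.906 to 32 ± 13 FPKM. None of these 4 genes overlapped between the groups, where 10.9% of all genes tested rose and 10.5% fell without overlap. Wnt5a, a Wnt ligand, rose from 11.1 ± 2.37 to 28.5 ± 9.05 FPKM.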
